A study of Mus musculus with 6 samples.

Results

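Of 43020 ATAC-seq peaks measured in mouse colon cancer organoids, 345 (0.802%) were far more accessible in every naive library than in any line grown from a tumour. They are called naive-high peaks here. Levels are given as CPM, each read count divided by the library total and multiplied by 1000000. A peak belonged to the set when the lowest of its 3 naive values was at least 2 times the highest of its 3 primary tumour values plus 1 CPM. Because all 6 libraries entered this rule, the difference between the groups at these peaks is the way they were chosen and not a result.

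The study asked how SOX17 takes part in immune evasion by early colorectal tumours. The primary tumour group held 3 libraries of AKP organoid lines, each labelled with C57Bl6 recipient mice. They came from tumours that formed after colonoscopic transplantation of naive AKP organoids into the colon of mice with an intact immune system, and repeated passage left cancer cells as the sole cells in culture. They are called tumour lines 1, 2 and 3 below, by replicate number. Naive AKP organoids, which had not been in a mouse, gave the 3 libraries of the other group. Both groups are AKP cancer organoids, so neither is normal colon epithelium. Growth in the mouse, outgrowth and passage are shared by all 3 tumour lines and cannot be told apart. The labels do not say whether the naive replicates were separate cultures, so the p-values below measure the spread between these libraries, which may be technical.

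ATAC-seq marks open chromatin with the Tn5 transposase, which cuts DNA where nucleosomes leave it exposed and attaches sequencing adaptors. Open sites include promoters at gene starts, which tend to be open in many cell types, and distal elements such as enhancers, which open and close with cell state. In the intestine, accessibility of distal elements is known to shift as epithelial cells leave the stem cell state and differentiate. The peaks are described below by position in mm9, the build of the deposited table. Gene starts and DNA sequence of that build were not used here, so no peak is assigned to a gene.

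Library totals over all peaks ran from 1916819 to 3594735 reads in the primary tumour group and from 1185356 to 5987545 in the naive group. A single read was therefore worth 0.278 to 0.522 CPM in tumour lines and 0.167 to 0.844 CPM in naive libraries. A count of 0 allows up to 3 reads, which is 0.835, 1.57 and 1.46 CPM in tumour lines 1, 2 and 3. Intervals below are exact binomial (Clopper-Pearson, 95%) and cover counting error alone, because reads amplified by PCR without molecular identifiers are not independent molecules.

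The rule drew a straight boundary through a continuous cloud of peaks. Of all peaks, 35597 had a lowest naive value of at least 2 CPM and could have met the rule, and 0.969% of them did. The median ratio of lowest naive value to highest primary tumour value plus 1 was 2.39 among naive-high peaks, with quartiles of 2.16 and 2.79, and 64 of the 345 reached 3. Just inside the boundary lay a peak on chromosome 4 from 98074122 to 98074605, with 4.17, 3.13 and 3.41 CPM in tumour lines 1, 2 and 3 and 11.8, 10.4 and 14.0 CPM in naive replicates 1, 2 and 3. Just outside lay a peak on chromosome 4 from 20494082 to 20495567, with 5.29, 5.22 and 10.7 CPM in tumour lines and 41.3, 24.7 and 23.4 CPM in naive libraries. These peaks had ratios of 2.002 and 1.997, and the one left out had the larger difference between the group means. The 3 peaks on either side of the boundary had ratios of 2.002 to 2.003 and 1.996 to 1.997. Among the 345, the ratio built from the lower interval bound in naive libraries and the upper bound in tumour lines was still at least 1 at 228 peaks, and at least 2 at 16 peaks.

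**Figure D1:**
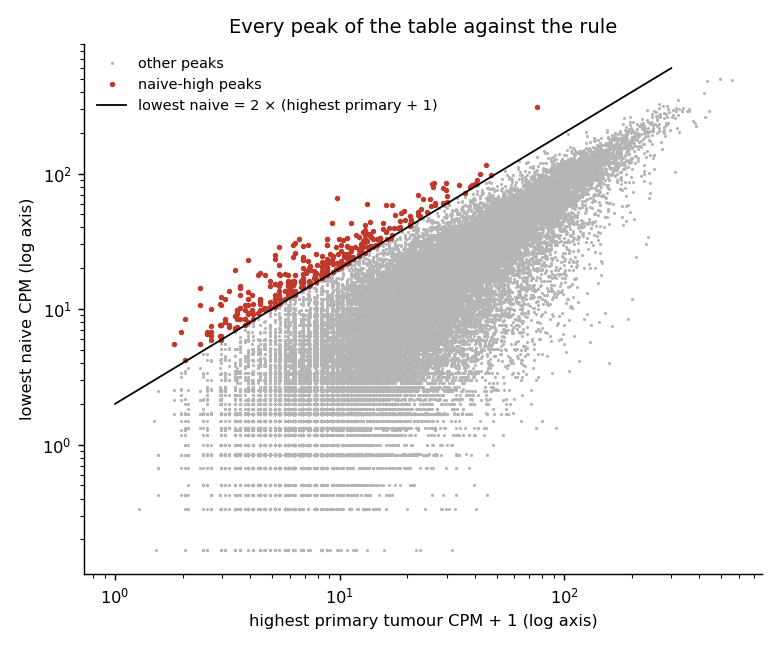
Each point is a peak, placed by its highest primary tumour CPM plus 1 (x) and its lowest naive CPM (y), both on log axes; the 1096 peaks with a lowest naive value of 0 are not drawn. The 345 naive-high peaks lie on or above the line at a ratio of 2, most of them close to it, and a single peak near 308 CPM stands far above the rest in level.

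In naive organoids these were strong but not exceptional peaks, and in the tumour lines they were weak ones. This follows in part from the choice, because the rule used the same values. Their median level was 4.73, 4.70 and 5.84 CPM in tumour lines 1, 2 and 3 and 24.5, 23.5 and 23.4 CPM in naive replicates 1, 2 and 3. Other peaks had medians of 12.2, 13 and 13.6 CPM in the tumour lines and 12.7, 9.52 and 12.3 CPM in the naive libraries. Ranked among all 43020 peaks of a library, the median naive-high peak stood at percentile 20.2 to 23.6 in tumour lines and at percentile 69.8 to 71.1 in naive libraries. Together the 345 took 0.260% ± 0.0251 of the reads in tumour lines and 1.07% ± 0.0277 in naive libraries (± SD over 3 libraries each).

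**Figure D2:**
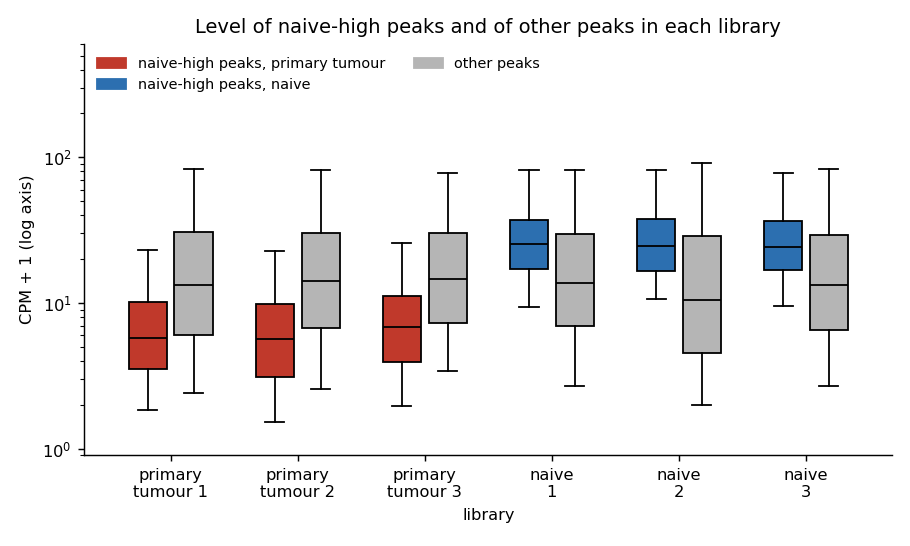
Boxes give the median and quartiles of CPM plus 1 (log axis) over naive-high peaks (coloured) and other peaks (grey) in each of the 6 libraries, with whiskers at the 5th and 95th percentiles. The medians of naive-high peaks lie below those of other peaks in all 3 tumour lines and above them in all 3 naive libraries, and the boxes overlap. The rule used these same levels, so the place of the coloured boxes against the grey ones follows in part from the choice.

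Few of these sites were without reads in any of the tumour lines. The mean primary tumour level was 21.4% of the mean naive level at the median peak, with quartiles of 16.7% and 27.6% and a range of 3.81% to 42.1%. No peak had 0 reads in all 3 tumour lines. Of 1035 values in these libraries 19 were 0, spread over 17 peaks, with 3, 11 and 5 of them in lines 1, 2 and 3. The counts were nonetheless low, with a median of 17, 9 and 12 reads per peak in tumour lines 1, 2 and 3 and 29, 141 and 55 in naive replicates 1, 2 and 3. Fewer than 10 reads were counted at 88, 177 and 134 of the 345 peaks in the tumour lines, and at 11, 0 and 0 in the naive libraries.

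For orientation, a whole-table comparison of the groups with edgeR's quasi-likelihood test called 6.40% of 36179 tested peaks lower in tumour lines at an adjusted p under 0.05. Of the 345 naive-high peaks, 344 passed its filter on low counts and all 344 were called lower, which follows from the choice and is no support for it. The peak that was not tested lies on chromosome 2 from 133390221 to 133390531, with 3, 2 and 2 reads in tumour lines and 5, 47 and 10 in naive libraries. By the rule no naive-high peak overlaps between the groups, and 12.6% of all peaks had their 3 primary tumour values below their 3 naive values.

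The highest ratio, 6.71, was on chromosome 11 from 4705945 to 4706759. This 814 bp peak had 6.95, 3.13 and 8.77 CPM in tumour lines 1, 2 and 3 and 77.6, 66.8 and 65.5 CPM in naive replicates 1, 2 and 3. The counting interval of the highest primary tumour value ran from 5.20 to 13.9 CPM and that of the lowest naive value from 55.6 to 76.7 CPM. The naive libraries were close to each other, and tumour line 2 had the lowest value, with an interval of 1.15 to 6.81 CPM that overlaps those of the other two lines.

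The next peak in this order, on chromosome 10 from 103177866 to 103178288, rests on far fewer reads. It had 5, 1 and 2 reads in tumour lines and 17, 100 and 35 in naive libraries, which gives 0.962 ± 0.435 CPM against 15.3 ± 1.23 CPM (± SD over 3 libraries each). Its ratio was 5.998, and the interval of the single read in tumour line 2 reached from 0.0132 to 2.91 CPM. Next came a peak on chromosome 15 from 54810824 to 54811340, with 1.11, 1.04 and 2.92 CPM in tumour lines and 34.6, 26.7 and 23.0 CPM in naive libraries. No other chromosome held as many of the 10 highest ratios as chromosome 15, which held 3.

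The tenth highest ratio, 4.63, was on chromosome 4 from 63345411 to 63346284, where all 6 libraries gave at least 10 reads. Tumour lines 1, 2 and 3 had 4.45, 5.22 and 8.28 CPM, and naive replicates 1, 2 and 3 had 43.9, 42.9 and 47.2 CPM. The other 6 of the 10 highest ratios lay between 4.75 and 5.70. At these 10 peaks the mean primary tumour level was between 6.03% and 13.4% of the mean naive level. They were 398 to 873 bp wide, and their distance to the nearest other peak ran from 10062 to 135808 bp.

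The peaks with the highest naive level were a different set, wider and less reduced. One peak stood alone, on chromosome 17 from 13500853 to 13502574, with 52.9, 74.6 and 74.5 CPM in tumour lines and 343, 308 and 352 CPM in naive libraries. Even in the tumour lines this peak was above the naive level of most members of the set. The next 7 had mean naive levels of 94.8 to 119 CPM and kept between 19.6% and 36.9% of it in the primary tumour group. On chromosome 4 from 63256209 to 63258110 the level was 39.1 ± 4.98 CPM in tumour lines and 119 ± 4.26 CPM in naive libraries (± SD over 3 libraries each). On chromosome 5 from 101061114 to 101062074 it was 37.2 ± 7.91 CPM against 101 ± 6.62 CPM. Among these 8 the tumour lines differed most, relative to their level, on chromosome 10 from 60253685 to 60255487. There they had 12.8, 16.2 and 33.1 CPM, while naive libraries had 126, 110 and 81.7 CPM, and line 3 was the highest of the lines.

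Tumour line 1 was the highest of the lines at 122 of the 345 peaks, line 2 at 77 and line 3 at 146. These are 35.4%, 22.3% and 42.3% of naive-high peaks, and the same lines were highest at 31.7%, 31.5% and 36.7% of all other peaks. The rule bounded these values and many rest on few reads, so the order of the lines is given as a description. The naive libraries shared the place of the lowest more evenly, with 118, 95 and 132 peaks for replicates 1, 2 and 3. The median coefficient of variation over all 345 was 31.6% between tumour lines and 17.1% between naive libraries. Other peaks had 44.9% between tumour lines at a primary tumour mean of 2 to 8 CPM and 27.2% at 8 to 40 CPM. Between naive libraries they had 46.5% at a naive mean of 2 to 8 CPM and 24.9% at 8 to 40 CPM. The naive-high peaks were not split by level, so the levels are not matched. The rule limits the spread in both groups.

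Peaks were also chosen on 5 libraries and read in the library left out. That library did not enter the choice, but the 3 libraries of the other group that it is set against did, so these values are a description and not independent of the choice. Without tumour lines 1, 2 and 3 in turn the rule took 560, 478 and 629 peaks, and without naive replicates 1, 2 and 3 it took 476, 442 and 532. The library left out met the rule at 61.6%, 72.2% and 54.8% of those peaks for the tumour lines and at 72.5%, 78.1% and 64.8% for the naive libraries. Over all 43020 peaks the same condition on that 1 library was met by 2.02% to 4.29%. The peaks that passed are the 345 in each case, by construction. In the library left out, between 95.5% and 99.5% of the chosen peaks still lay on the naive-high side of every library of the other group, as 25.2% to 30.8% of all peaks did. The median difference of log2(CPM + 1), primary tumour minus naive, was -1.42 to -1.81 when the group was represented by the library left out, and -1.88 to -1.96 when it was represented by the libraries used to choose. Leaving out tumour line 3 or 1, or naive replicate 3, enlarged the set by over 1.5 times.

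Width, and a score that the authors gave each peak, were not part of the rule, although both rise with the level that was. Naive-high peaks had a median width of 636 bp (quartiles 463 and 890, range 226 to 2604), other peaks 747 bp, and other peaks with a lowest naive value of at least 2 CPM 846 bp. Broad peaks of 2000 bp or more made up 1.45% of the set (5 peaks), against 4.41% of other peaks. The widest, on chromosome 2 from 91160977 to 91163581, had 19.7 ± 3.12 CPM in tumour lines and 52.4 ± 6.55 CPM in naive libraries (± SD over 3 libraries each). The narrowest, on chromosome 2 from 91672459 to 91672685, had 6, 0 and 3 reads in tumour lines and 10, 43 and 16 in naive libraries.

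In each of 5 equal bins of the lowest naive value the naive-high peaks were narrower. These bins match the naive level alone. The median primary tumour level was 2.81 against 15.5 CPM in the third bin, 6.11 against 26.9 CPM in the fourth and 15.9 against 59.8 CPM in the fifth, as the rule requires, so width and score are not compared at equal overall level. In the third bin, 8.18 to 16.0 CPM, their median width was 466 bp, against 834 bp for the other peaks there. In the fourth bin, 16.0 to 33.7 CPM, it was 732 against 978 bp, and in the fifth, from 33.9 CPM upwards, 942 against 1189 bp. The lowest bins held 1 and 23 naive-high peaks. The share of peaks that met the rule was 1.46%, 2.07% and 0.993% in these 3 bins. Per kilobase of peak, the median naive-high peak had 7.40 CPM in tumour lines and 35.3 CPM in naive organoids, and other peaks had 16.9 and 15.2 CPM per kilobase in the same groups.

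Each peak carries a score from the authors, and no source used here says what it measures. Its median was 20.5 for naive-high peaks and 21.8 for other peaks, and this direction was not stable. It turned with 2 CPM added in the rule (24.4 against 21.8), at a fold of 1.5 (24.8 against 21.7), without tumour line 1 (23 against 21.8) and without naive replicate 1 (22 against 21.8). Within the level bins it was lower for naive-high peaks, with 11.6 against 26.2 in the third, 21.8 against 51.7 in the fourth and 52.0 against 118 in the fifth. Scores of 100 or more were found at 11 of the 345 (3.19%) and at 13.6% of other peaks. Peaks chosen by the mirrored rule, with the lowest primary tumour value at least 2 times the highest naive value plus 1, numbered 700 and had a median width of 798 bp and a median score of 48.1.

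The median distance from a naive-high peak to the nearest peak of any kind was 8845 bp, against 7315 bp for other peaks and 6837 bp for other peaks with a lowest naive value of at least 2 CPM. No other peak lay within 50 kb of 43 of them (12.5%), as was the case for 9.52% of other peaks. Without tumour line 1 the direction turned, with 7190 bp for the peaks then chosen and 7330 bp for the others. In the fifth level bin the distances were 6450 against 6472 bp. Peaks of the mirrored rule had a median distance of 5170 bp.

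Naive-high peaks were found on all autosomes and on chromosome X, in 168 of 276 windows of 10 Mb. Chromosome 4 held 33, chromosome 1 held 32 and chromosome 5 held 31, and the share of a chromosome's peaks that met the rule ran from 0.261% on chromosome 18 (4 peaks) to 1.16% on chromosome 4. The window with most of them, on chromosome 1 from 30 to 40 Mb, held 8 of its 215 peaks (3.72%). Windows of 6 lay on chromosome 4 from 100 to 110 Mb and from 110 to 120 Mb and on chromosome 5 from 90 to 100 Mb.

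Whole chromosomes differed in level between the libraries, and these values stand beside the counts. The median over all peaks of a chromosome of log2(CPM + 1), taken relative to the naive mean, was 0.28, 0.16 and 0.25 on chromosome 18 and 0.25, 0.08 and 0.16 on chromosome 19 in tumour lines 1, 2 and 3. The share of naive-high peaks there was 0.261% and 0.369%. It was -0.19, 0.03 and 0.10 on chromosome 4 and -0.31, 0.01 and 0.15 on chromosome 5, with shares of 1.16% and 1.15%. On chromosome 13 it was -0.05, -0.56 and -0.02, lowest in tumour line 2, which was the highest line at only 1 of the 23 naive-high peaks there, and the share was 1.12%. Chromosomes with like medians also differed in share. The highest of the 3 line medians was 0.15 on chromosomes 5, 6, 7 and 10, where the shares were 1.15%, 0.78%, 0.483% and 1.15%. Over 20 chromosomes the Spearman correlation between the share and the highest of the 3 line medians was -0.42, a description over chromosomes of the same libraries. With each library's chromosome median removed, an alternative chosen after the data were seen, 370 peaks met the rule and 321 of the 345 were among them. The shares then ran from 0.456% on chromosome 18 to 1.36% on chromosome 16, and the correlation was -0.14.

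**Figure D3:**
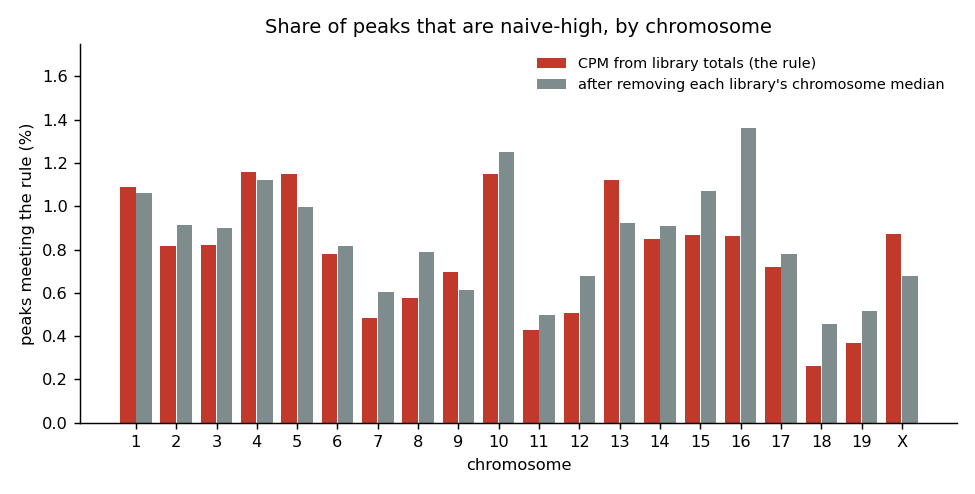
Bars give the percentage of a chromosome's peaks that met the rule with CPM from library totals (red) and after each library's chromosome median was removed (grey); chromosome Y, with 2 peaks and none chosen, is left out. Chromosomes 18 and 19 hold small shares by both counts, and chromosome 16 changes most, with 0.863% before and 1.36% after.

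Most naive-high peaks, 275 of the 345, had no other naive-high peak within 50 kb. The share to be expected for a set of this size was not computed. The median distance from one to the next was 1435 kb, with quartiles of 121 and 4099 kb. Within 50 kb of another lay 70 of the 345 (20.3%), in 26 pairs and 5 larger groups, and within 20 kb 43 (12.5%). Of the 700 peaks of the mirrored rule 26.0% had another within 50 kb, in a set with more members. Of 39 pairs of consecutive naive-high peaks within 50 kb, 13 had another peak between them. The same line was highest at both peaks in 16 of the 39, and the number to be expected was not computed.

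The largest group held 5 naive-high peaks on chromosome 4 from 102179013 to 102243422, over 64.41 kb. No other peak lay among them or within 50 kb on either side, so every peak of this stretch met the rule. Their summed level was 17.0, 28.2 and 35.6 CPM in tumour lines 1, 2 and 3 and 141, 123 and 114 CPM in naive replicates 1, 2 and 3. The first peak had 2.78, 3.65 and 5.36 CPM in tumour lines and 29.5, 26.1 and 27.2 CPM in naive libraries. The third, from 102199983 to 102200578, had 0.835, 6.78 and 7.31 CPM against 16.9, 23.9 and 19.1 CPM. Line 1 was the lowest of the lines at the first 4 of the 5 peaks, and line 2 at the last.

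On chromosome 1 a group of 4 from 39243567 to 39316945 was interleaved with 4 peaks that did not meet the rule. The naive-high peaks summed to 41.6 ± 6.32 CPM in tumour lines and 136 ± 6.61 CPM in naive libraries (± SD over 3 libraries each). Of the 4 peaks between them 3 fell, with log2 fold changes of -1.42 (SE 0.25, adjusted p = 0.0004), -1.62 (SE 0.36, adjusted p = 0.00496) and -0.75 (SE 0.24, adjusted p = 0.0362, edgeR). The fourth, from 39301678 to 39302039, had 6.68, 2.61 and 10.2 CPM in tumour lines and 11.0, 7.35 and 10.2 CPM in naive libraries, and was not called (adjusted p = 0.541). A peak beyond the end of the group, from 39318839 to 39319080, was not called either (log2 fold change -1.32, SE 0.62, adjusted p = 0.166, edgeR).

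A second group on chromosome 4 held 3 peaks from 114319501 to 114351386. It summed to 33.9 ± 6.90 CPM in tumour lines and 141 ± 20.4 CPM in naive organoids. The strong peak 21.5 kb before its start, from 114296842 to 114299082, had 86.5, 70.4 and 110 CPM in tumour lines and 71.7, 78.2 and 62.1 CPM in naive libraries (log2 fold change 0.27, SE 0.21, adjusted p = 0.461, edgeR). The weak peak on the other side, from 114370150 to 114370484, had 3.21 ± 1.29 CPM in tumour lines and 7.14 ± 4.67 CPM in naive libraries (± SD over 3 libraries each). Its log2 fold change was -1.35 (SE 0.61), and it was not called (adjusted p = 0.144, edgeR). Another weak peak, from 114274242 to 114274691, lay 45 kb before the start of the group and was not tested. It had 3.89, 13 and 5.84 CPM in tumour lines and 2.53, 3.34 and 3.4 CPM in naive libraries.

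On chromosome 10, 3 naive-high peaks lay within 9.08 kb, from 119828090 to 119837172, with 12.8 ± 4.93 CPM in tumour lines and 73.7 ± 10.1 CPM in naive organoids. The middle one had 2 reads in each primary tumour library, against 10, 62 and 22 reads in naive libraries. A peak 31.5 kb from the start of the group had 27.7 ± 8.85 against 41.8 ± 1.46 CPM and was not called (adjusted p = 0.119, edgeR). On chromosome 14, 3 peaks from 100683716 to 100750412 summed to 37.9 ± 1.77 CPM in tumour lines and 128 ± 10.6 CPM in naive organoids. The peak between them fell by 2.30 on the log2 scale (SE 0.55, adjusted p = 0.0056), as did a peak 16.7 kb before the start, by 1.60 (SE 0.42, adjusted p = 0.0102, edgeR). A peak 37 kb before the start was not called (log2 fold change -0.91, SE 0.35, adjusted p = 0.0865, edgeR), and one 41.5 kb before it was not tested.

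**Figure D4:**
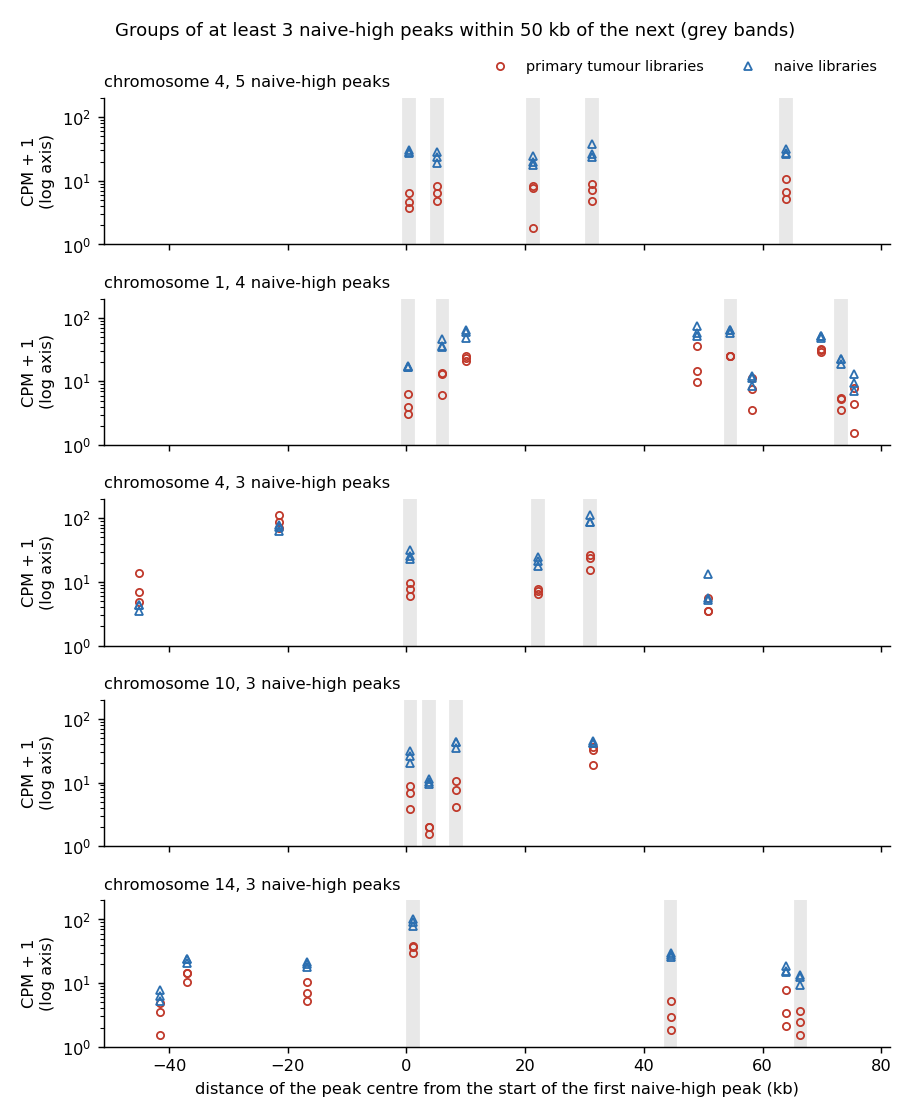
Each panel is 1 of the 5 groups, with peak centres placed by distance in kb from the start of the first naive-high peak and the CPM plus 1 of each library on a log axis (circles: primary tumour, triangles: naive; grey bands: naive-high peaks). On chromosome 4 (5 peaks) nothing but naive-high peaks is present, and on chromosome 1 peaks between them are also lower in tumour lines.

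Beyond the groups, peaks that did not meet the rule were counted by their distance to the nearest naive-high peak. The rule did not use the reads of these peaks, though it used the same libraries. Within 50 kb lay 976 tested peaks, of which 173 (17.7%) fell and 19 (1.95%) rose in tumour lines. Over all 35835 tested peaks that are not naive-high the shares were 5.51% and 8.07%. The peaks that fell lay on 20 chromosomes, and their median log2 fold change was -1.32. Of these 173 peaks, 53 had a ratio of at least 1.5 and so came close to the rule.

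The share decreased with distance. At up to 5 kb, 52 of 119 tested peaks (43.7%) fell and 1 rose, and the median log2 fold change was -0.94. From 5 to 10 kb 20% fell, from 10 to 20 kb 18.8%, from 20 to 50 kb 11.2% and from 50 to 100 kb 9.32%. Beyond 500 kb 4.90% of 29772 peaks fell and 8.36% rose, with a median log2 fold change of 0.02. Counting only peaks that are not naive-high, a called lower peak lay within 50 kb of 129 of the 345 and a called higher peak near 16. Any tested peak of this kind lay in that range for 284. The same count around other peaks is not given, so these numbers have no background beside them.

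**Figure D5:**
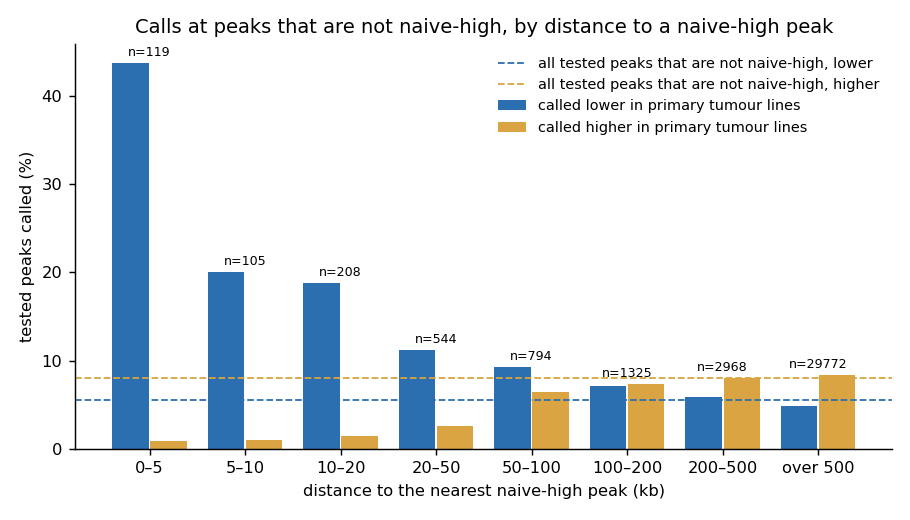
Bars give the percentage of tested peaks called lower (blue) and higher (yellow) in tumour lines by edgeR, in bins of distance to the nearest naive-high peak, with the number of peaks above each pair and the shares over all tested peaks that are not naive-high as dashed lines. The share called lower is 43.7% at up to 5 kb and 4.90% beyond 500 kb, and the share called higher runs the other way.

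All 3 tumour lines showed this gradient. Among the 119 peaks at up to 5 kb, the median of log2(CPM + 1), taken relative to the naive mean, was -0.81, -0.87 and -0.68 in tumour lines 1, 2 and 3 and -0.01, -0.05 and 0.00 in naive replicates 1, 2 and 3. From 5 to 10 kb it was -0.47, -0.50 and -0.41 in the lines, and from 20 to 50 kb -0.17, -0.29 and -0.17. Beyond 500 kb it was 0.01, 0.02 and 0.09. Averaged over the groups, the median level was 17.3 CPM for peaks within 50 kb and 15.9 CPM beyond. In each of 4 equal bins of mean level more peaks near a naive-high peak fell than far from one, with 8.53% against 1.46% in the weakest and 23.2% against 9.28% in the strongest.

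The count depended on the libraries used. Without naive replicate 2, the deepest library, 5.37% of tested peaks within 50 kb fell, against 1.43% of all tested peaks that are not naive-high. Without tumour line 2 the shares were 11.4% against 3.35%, and without tumour line 3 they were 11.1% against 3.36%. With each library's chromosome median removed 17.0% fell, against 5.68%, and without chromosome 13 17.0%, against 5.20%. With the naive-high peaks in 3 equal parts by ratio, tested peaks within 50 kb were called lower in 14.9% near the lowest part (ratio up to 2.22), 20.4% near the middle part and 19.4% near the highest part (from 2.65).

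Peaks of the mirrored rule had the opposite surroundings. Of 2409 tested peaks within 50 kb of one, not counting those 700, 433 (18%) rose and 50 (2.08%) fell. Over all 35489 tested peaks outside the mirrored set the shares were 6.21% and 6.53%. At up to 5 kb 37.1% of 299 rose. Both sets were chosen and both counts made on the same 6 libraries.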

How the data were processed

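Read counts for every peak, deposited by the authors in 1 table and not normalized, covered 3 primary tumour and 3 naive libraries in 1 shared peak set. Per the submitters' processing notes, the build was mm9 and the tools were MACS2, Bowtie, bedtools, Picard and SAMtools. Their roles and versions, duplicate handling and any Tn5 shift, all of which can change counts, are not given in the sources analysed. Starts and ends are printed as deposited.

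CPM used library totals. The rule and named regions (10 highest ratios, 8 highest naive levels, 2 widest and narrowest, groups of at least 3 within 50 kb, 3 peaks either side of the threshold) were chosen with earlier results of these data known. Calls came from edgeR 4.0.16 (R 4.3.3): filterByExpr, TMM, robust quasi-likelihood F test, 2-sided, group as sole term, Benjamini-Hochberg over 36179 peaks, adjusted p under 0.05. Fold changes are primary tumour minus naive. Alternatives included DESeq2 1.42.0. The fit was tested on simulated counts, where it missed many of the smaller changes and many of the larger decreases. It recovered decreases less often than increases, so shares called lower and higher are not on an equal footing. No set test was run.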

Additional observations from a re-analysis of the deposited data

How the results depend on the processing

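Counts of a few reads in the tumour-derived lines limit many ratios near the threshold. Strong peaks rest on more reads, but counting error can also take their ratios below 2. The peak on chromosome 5 from 101061114 to 101062074, with a ratio of 2.06, had 166, 60 and 70 reads in tumour lines 1, 2 and 3. From the interval bounds its ratio was 1.46. Scaling by TMM, DESeq2 size factors, trended offsets or chromosome medians gave 352 to 370 naive-high peaks, of which 309 to 324 were among the 345. The rule took 419 with 0.5 CPM added, 225 with 2 CPM added, 886 at a fold of 1.5 and 64 at a fold of 3, and 442 to 629 without 1 library. The median width was 721 bp with 2 CPM added and 695 bp at a fold of 1.5, and the median score 24.4 and 24.8. The share with another naive-high peak within 50 kb was 9.38% at a fold of 3, and 12.5% within 20 kb. Without 1 library edgeR called 849 to 2407 peaks lower and 1366 to 3033 higher, and 5.37% to 16.8% of peaks within 50 kb lower. The cause was not tested. The lowest of each came without naive replicate 2. With a replicate block 1567 peaks were called lower and 1972 higher, and 11.1% of neighbours (3.43% of all that are not naive-high) were called lower. Same-numbered libraries had deviations correlated at -0.238, -0.107 and 0.002, so the numbers were not taken as pairs, and none of the 6 matched its own number best. DESeq2 called 16.0% of neighbours lower, against 4.92%.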
